A study of Homo sapiens with 21 samples.

Results

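The circular RNAs (circRNAs) described here were read in the bronchial line NL20 and in the lung cancer line NCI-H1975 and had no read in the lung cancer line PC-9. They were chosen from their own counts, as the circRNAs with at least 5 reads over the 3 NL20 libraries, at least 5 over the 3 NCI-H1975 libraries and 0 in the 3 PC-9 libraries. This rule gave 656 members among the 124082 circRNAs of the table (0.529%), and 7.15% of the 9169 circRNAs that met both minima. The values in these 9 libraries chose the members and are given as a description, without a test.

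Reads of circRNAs were counted in 21 libraries, in 7 groups of 3. NL20 is an immortalized bronchial epithelial line that does not form tumours, and stands for normal lung in this study. Both lung cancer lines, PC-9 and NCI-H1975, are labelled EGFR mutant, and each was also sequenced as cells with neither drug resistance nor a plasmid. Gefitinib-resistant PC-9 cells were kept in 1 µM gefitinib and osimertinib-resistant NCI-H1975 cells in 1 µM osimertinib, both inhibitors of the EGFR kinase. NCI-H1975 cells transfected with pCMV6, a plasmid, or with FASN, fatty acid synthase, received the selection agent G418 at 50 µg/ml. All lines were grown in the same medium with serum. Separate cultures are not named for the 3 libraries of a group, nor is it stated whether a resistant or transfected line was a single clone. The p-values therefore measure only the spread between these libraries, which may be technical.

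A circRNA forms when the end of an exon is spliced to the start of the same or an earlier exon, which leaves a closed loop without free ends. Such loops resist exonucleases and are often stable, and a gene can give several of them from different pairs of splice sites. The amount of a circRNA depends on transcription of its host gene, on back-splicing against linear splicing, and on turnover, and it often differs between cell types. The table names circRNAs by numbers of its own and gives no host gene, coordinate or sequence, so no role can be given for a member, and the labels of the lines could not be checked against marker genes.

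The smallest library held 95808 reads and the largest 203079. Across the circRNAs tested, gefitinib-resistant PC-9 libraries had Spearman correlations of 0.609 to 0.648 with PC-9 libraries and 0.346 to 0.382 with NCI-H1975 libraries. Osimertinib-resistant NCI-H1975 libraries had 0.524 to 0.604 with NCI-H1975 and 0.305 to 0.399 with PC-9, and the pCMV6 and FASN libraries 0.600 to 0.677 with NCI-H1975. Each derived group was closest to the line on its label. Osimertinib-resistant replicate 2 stood apart from its group, with a chi-square per degree of freedom of 4.80 and 4.37 against the other libraries of that group, where no other pair within a group exceeded 2.68. This library and pCMV6 replicate 1, whose groups are compared, both totalled 110456 reads. Their counts were equal for 911 of the 27078 circRNAs read in either, and their chi-square per degree of freedom was 8.65.

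In NL20 and NCI-H1975 the members took nearly the same share of reads. They held 1.66%, 1.78% and 1.70% of the reads in NL20 replicates 1 to 3, or 1.71% ± 0.061 (SD, n = 3), and 1.72%, 1.73% and 1.71% in NCI-H1975, or 1.72% ± 0.0085. In PC-9 they had no read among 430261. A count of 0 there allows up to 9.43 CPM, taking 3 counts as the floor, where CPM are counts per 1000000 reads of the tested circRNAs, scaled by TMM, a trimmed mean of log ratios between libraries. The median member stood at 20.3 CPM in NL20 and 23.5 CPM in NCI-H1975, so that the floor is not far below the level of a typical member. No molecular identifiers are named, so amplified reads need not be independent molecules, and counting error is all that floors and intervals cover. In such bulk libraries, fewer cells with a circRNA and less of it per cell cannot be told apart.

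Most members were sparse. The median count over 3 libraries was 8 in NL20 and 8 in NCI-H1975, and 301 members had under 10 reads in both lines. At least 10 reads in each line were found for 126 members and at least 20 in each for 25. The 10 most abundant members held 21.5% of the members' reads in NL20 and 15.9% in NCI-H1975. Levels in the lines were within 2-fold of each other for 487 members (74.2%), while 15 were at least 4-fold higher in NL20 and 15 at least 4-fold higher in NCI-H1975.

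The member with most reads in NL20 was hsa_circ_20528, with 148, 193 and 141 reads in NL20 replicates 1 to 3 and 5, 7 and 14 in NCI-H1975. It stood at 1221 ± 117 CPM in NL20 (SD, n = 3) and 74.4 ± 34.1 CPM in NCI-H1975, and the groups did not overlap. Next came hsa_circ_18923, with 113, 102 and 97 reads in NL20, all above the 26, 41 and 31 of NCI-H1975. In NCI-H1975 the most abundant member was hsa_circ_10548, with 166, 136 and 144 reads there and 19, 56 and 21 in NL20. It stood at 1323 ± 237 CPM in NCI-H1975 and 237.7 ± 134 CPM in NL20. It was followed by hsa_circ_6047, for which the NCI-H1975 libraries gave 51, 45 and 58 reads and the NL20 libraries 33, 36 and 30, or 452.9 ± 46.2 and 251.9 ± 3.48 CPM. These 4 were well counted in both lines, and the lowest of their counts in any of the 6 libraries was 5.

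The lines differed most, among members with at least 20 reads over both, for hsa_circ_24192 and hsa_circ_2178 on the NL20 side. The first had 88, 112 and 77 reads in NL20 against 3, 2 and 0 in NCI-H1975, a ratio of 47.9 (95% exact conditional interval 20.3 to 149, for counting error). The second had 68, 73 and 57 reads against 1, 3 and 1, a ratio of 34.3 (14.4 to 107). On the NCI-H1975 side hsa_circ_6433 had 2, 0 and 5 reads in NL20 against 18, 15 and 19 in NCI-H1975. hsa_circ_18518 had 6, 2 and 5 against 21, 40 and 27, with a ratio of 0.128 (0.0655 to 0.230). For all 4 the libraries of the lines did not overlap. The intervals are no test, since the 4 were picked as extremes of counts that the rule used. They also leave out the spread between libraries, which exceeded counting error within every group (chi-square per degree of freedom at least 2.07).

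**Figure D1:**
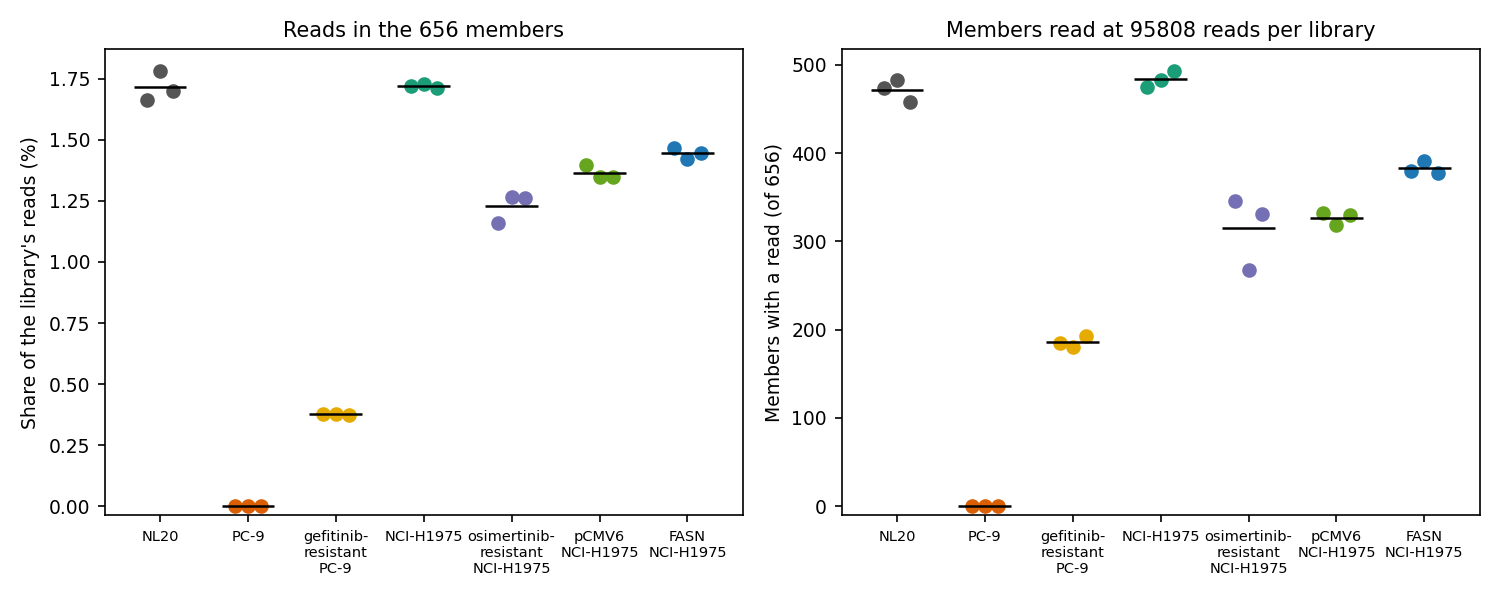
Share of each library's reads held by the 656 members (left, percent) and number of members with a read after thinning every library to 95808 reads (right, mean of 100 draws), by group, with each library as a point and the group mean as a line. NL20 and NCI-H1975 sit near 1.7% and PC-9 at 0 by the rule, gefitinib-resistant PC-9 lies near 0.376%, and the derived NCI-H1975 groups average 1.23% to 1.44%.

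Values just inside and just outside the limits of the rule ran into each other. The 117 members with exactly 5 NL20 reads had a median of 6 reads in NCI-H1975, and the 157 circRNAs with 4 NL20 reads that met the rest of the rule had 7. The 127 members at 5 NCI-H1975 reads had a median of 7 reads in NL20, as had the 159 circRNAs at 4. At the PC-9 limit, 426 circRNAs met both minima and had 1 PC-9 read, with medians of 9 reads in NL20 and 8 in NCI-H1975. The size of the group depends on depth as well: thinned to 95808 reads per library, the same rule gave 294.1 circRNAs on average over 100 draws.

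Gefitinib-resistant PC-9 cells carried reads of many members, but at low levels. A read was found for 373 of the 656 (56.9%) and none for 283 (43.1%). The 3 libraries gave 409, 455 and 439 reads of members, or 0.376% ± 0.0028 of all reads (SD, n = 3), against 0 in PC-9. All 3 libraries lay far below each NL20 and NCI-H1975 library in share. A single read was found for 100 members, 196 had at least 3 reads, and 58 were read in all 3 libraries. The highest count was 15.

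The members had been chosen for zero counts in PC-9, so a higher count in gefitinib-resistant PC-9 is in part built into the rule and was not tested. CircRNAs at the same minima that just missed the rule give the scale. With 1 PC-9 read, 75.1% of 426 circRNAs were read in gefitinib-resistant PC-9, with 2 PC-9 reads 359 of 449, with 3 to 5 reads 87.2% of 1251 and with 6 or more 98.0% of 6387. The 56.9% of the members lay below each of these shares. The mirrored rule, for circRNAs of NL20 and PC-9 with no NCI-H1975 read, held 522 circRNAs. Of these, 59.8% had a read in osimertinib-resistant, 51.9% in pCMV6 and 53.4% in FASN cells of that line, shares near that of the members in gefitinib-resistant PC-9. These shares depend on depth and were not compared by a test.

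Reads in gefitinib-resistant PC-9 were unevenly spread over the members. The 530 members whose smaller count in NL20 and NCI-H1975 was 5 to 9 summed to 3714 CPM there, 29.0% of their NCI-H1975 level. For the 101 members at 10 to 19 reads the figure was 19.0%. The 25 members with at least 20 reads in both lines summed to 200.1 CPM against 5060 in NCI-H1975, or 3.95%, and 16 of them (64.0%) had no read. Of the sparsest tier 42.6% had none, and of the middle tier 40.6%. The members read were thus 304 of 530, 60 of 101 and 9 of 25 in the order of the tiers. Absence from both PC-9 groups was most frequent in the best-counted tier.

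The members with most reads in gefitinib-resistant PC-9 were hsa_circ_3222 and hsa_circ_17994. hsa_circ_3222 had 2, 6 and 7 reads in replicates 1 to 3, or 56.2 ± 29.2 CPM (SD, n = 3), beside 41.9 ± 21.6 in NL20 and 15.0 ± 14.4 in NCI-H1975. hsa_circ_17994 had 5, 2 and 7 reads, or 53.3 ± 29.1 CPM, beside 67.1 ± 59.1 in NL20 and 114.8 ± 38.4 in NCI-H1975. Both were read in every gefitinib-resistant library and in no PC-9 library. No member had 20 or more reads over PC-9 and gefitinib-resistant PC-9 together.

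**Figure D2:**
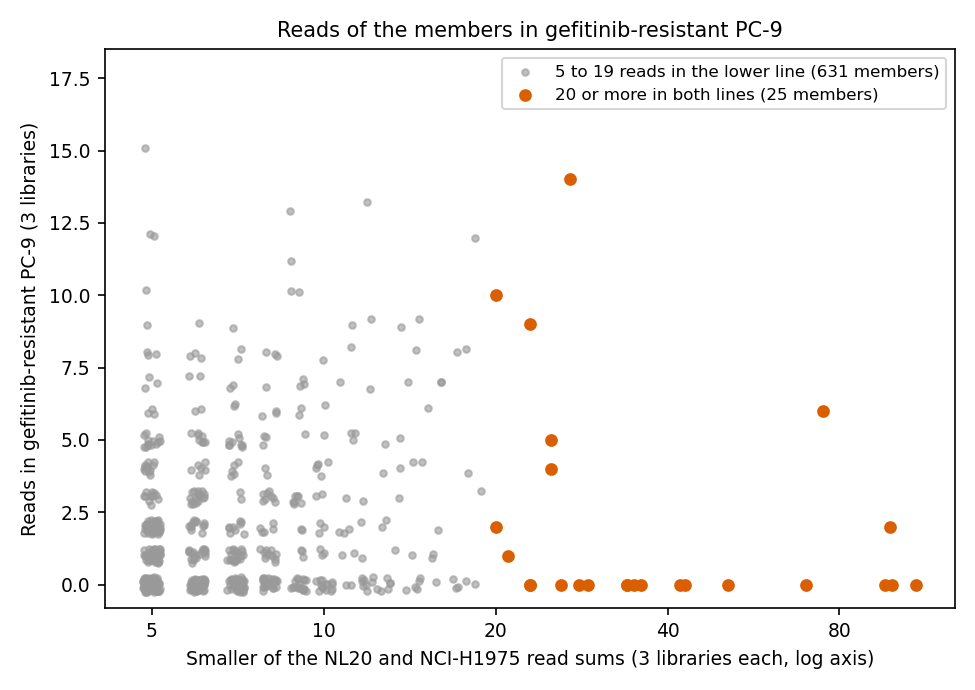
Reads of each of the 656 members in gefitinib-resistant PC-9 (sum of 3 libraries) against the smaller of its read sums in NL20 and NCI-H1975 (log axis), with small random offsets on the grey points. Of the 25 members with at least 20 reads in both lines (orange), 16 lie at 0, and the highest gefitinib-resistant count, 15, belongs to a sparse member.

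Whether the lower level in PC-9 cells also appears in libraries that the rule did not use was tested in gefitinib-resistant PC-9 against the mean of the osimertinib-resistant, pCMV6 and FASN groups of NCI-H1975. hsa_circ_10548 had no read in gefitinib-resistant PC-9. It had 74, 88 and 108 reads in the osimertinib-resistant libraries, 138, 113 and 97 in the pCMV6 and 97, 208 and 116 in the FASN libraries, and was at least 114-fold lower in gefitinib-resistant PC-9 (edgeR quasi-likelihood test, adjusted p = 2.05e-67). hsa_circ_4850 likewise had no read against 71, 40 and 85, then 44, 49 and 44, then 42, 50 and 27, and was at least 49.4-fold lower (edgeR adjusted p = 3.01e-29). In both, every derived NCI-H1975 library was above every gefitinib-resistant library. The calls of both held in all 20 alternative fits by edgeR or DESeq2, which include leaving out each of the 12 libraries, with adjusted p between 2.38e-70 and 7.20e-13 for hsa_circ_10548.

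Of the 656 members, 195 (29.7%) passed the filter on low counts and could be tested, and 461 could not. Among the 195, edgeR's quasi-likelihood test called 69 lower in gefitinib-resistant PC-9 and 0 higher, while 9.08% of all 9175 circRNAs tested were called lower and 13.6% higher (22.7% in either direction). In either direction 96 of the tested members had an unadjusted p under 0.05, a count not made for all circRNAs tested. The median fitted log2 difference was -2.64 for the tested members and 0.04 for all circRNAs tested. A member could pass the filter through the derived NCI-H1975 libraries of this same comparison, so these figures describe the tested members and not the 656. From the NL20 and NCI-H1975 libraries alone 76 would have passed, and 49 of them were called lower. The share called lower among all circRNAs passing in that way was not counted, so this figure has no background beside it. Of the 69 called, 54 had no read in gefitinib-resistant PC-9, and the others had at most 9. In the tier with at least 20 reads in both lines, 21 of 25 were called. Those not called were hsa_circ_17994, hsa_circ_17785, hsa_circ_1396 and hsa_circ_1458, which had 14, 10, 9 and 5 reads in gefitinib-resistant PC-9 and were singled out after their values were seen. Among fits with 1 library left out, the count was lowest without a gefitinib-resistant one. It was 41, 39 and 37 without replicate 1, 2 or 3 of that group, and between 61 and 67 without any one of the other 9 libraries. It was 30 without the filter, 44 with a minimum count of 10 and again 69, all lower, with DESeq2. The share called over all circRNAs tested was not counted in these alternative fits.

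**Figure D3:**
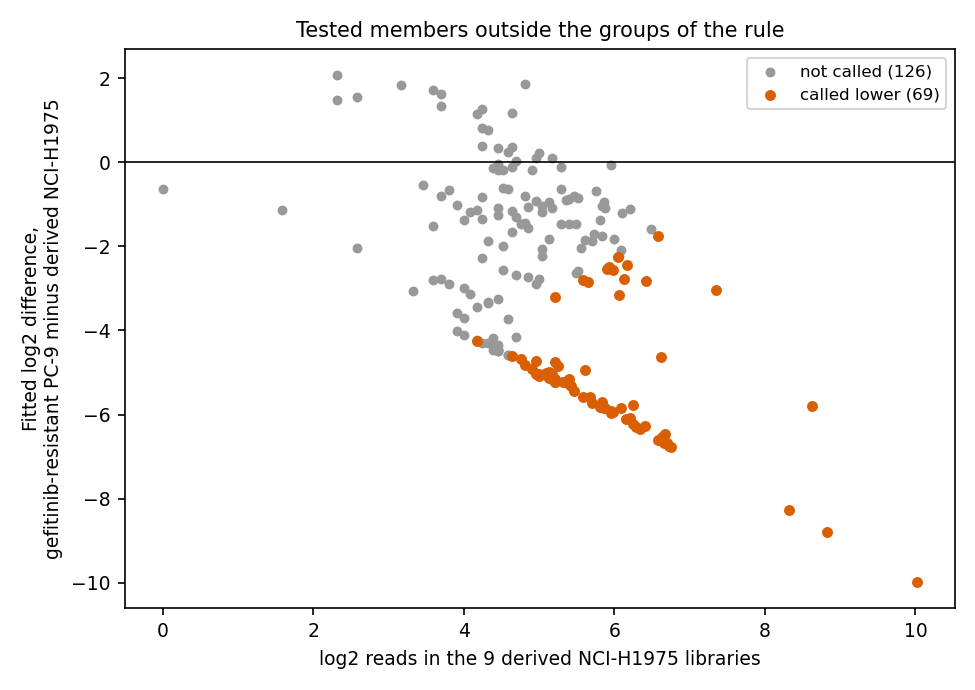
Fitted log2 difference of the 195 tested members, gefitinib-resistant PC-9 minus the mean of the derived NCI-H1975 groups, against the log2 of their reads in the 9 derived NCI-H1975 libraries. The 69 called members (orange) all lie below 0. Points along the lower edge had no read in gefitinib-resistant PC-9, so that their fitted values depend on the prior count and are no measured folds. Members such as hsa_circ_3067, without a read in a derived group as well, lie higher. Their fitted values have no usable SE and they could not be called.

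**Figure D4:**
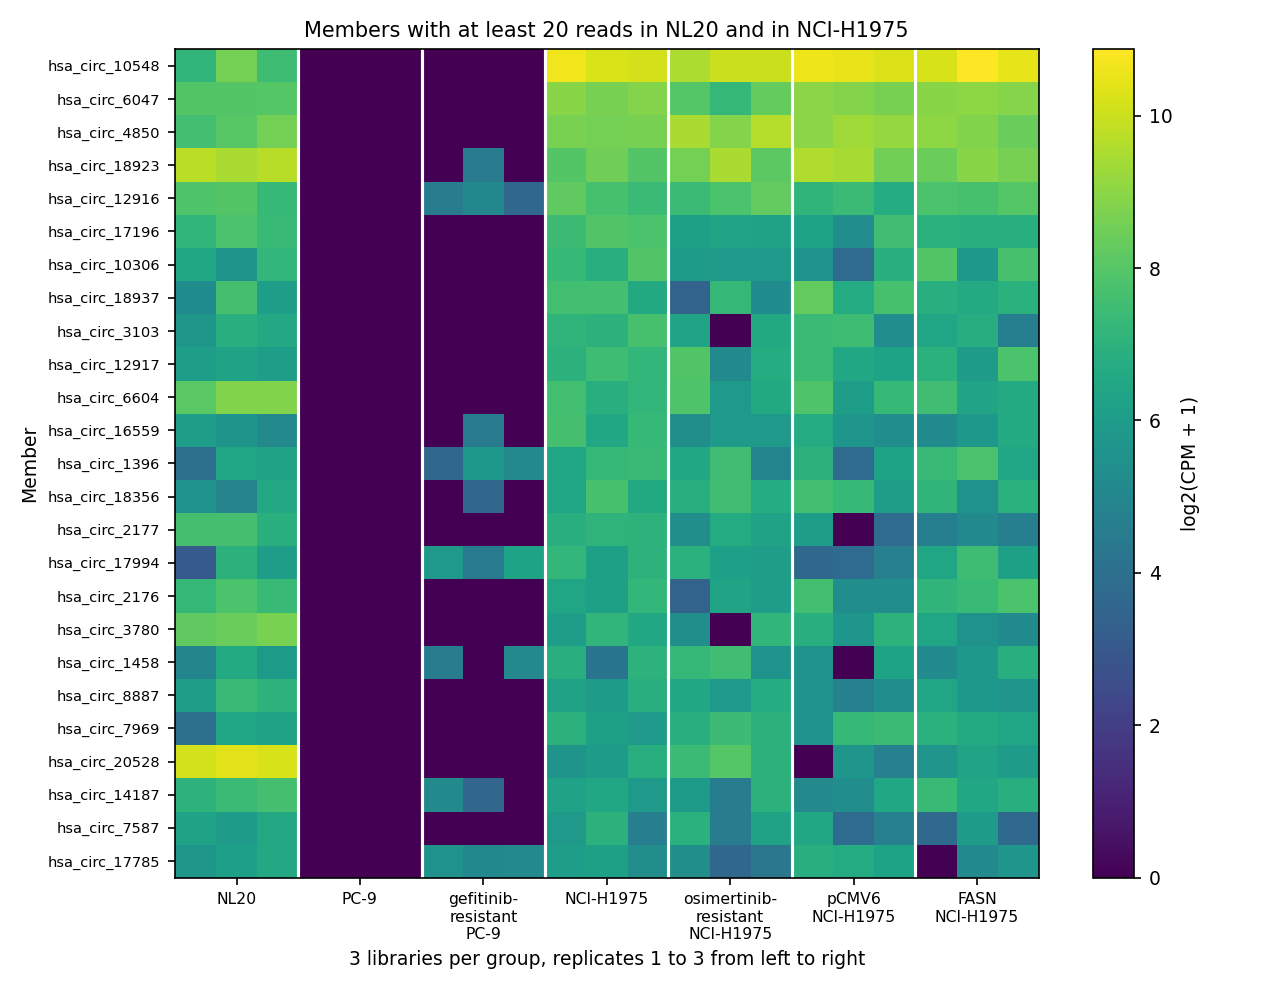
log2(CPM + 1) of the 25 members with at least 20 reads in NL20 and in NCI-H1975, in each of the 21 libraries, ordered by NCI-H1975 reads. PC-9 is empty by the rule, 16 rows are empty in gefitinib-resistant PC-9 too, and each of the 25 was read in all 3 derived NCI-H1975 groups.

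The numbers of the members ran from 96 to 78671, and 57 of the 656 had a number next to that of another member. Numbers were assigned library by library along the columns, each circRNA where it first appears, and their order within a library is not stated. Where a member was followed by the next number and that circRNA also met both minima, the follower was itself a member in 31 of 145 cases (21.4%). After a circRNA that met the minima but was read in PC-9, the follower was a member in 122 of 3074 (3.97%). At a distance of 2 numbers the shares were 12.0% and 4.02%, and at 1000 numbers 6.62% and 5.34%. Of the distances compared, immediate neighbours shared the absence from PC-9 most, a description that uses the counts of the rule. Whether neighbours share a host gene was not analysed here.

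These 57 members formed 26 runs of consecutive numbers, of which 22 held 2 members, 3 held 3 and 1 held 4. Gefitinib-resistant PC-9, which the rule did not use, had no read of any member in 12 of the runs. Of the run members 64.9% had no gefitinib-resistant read, against 41.1% of the 599 other members, but run members were also better counted, with a median of 14 NL20 reads against 8. The part of abundance in this gap was not tested.

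The longest run was hsa_circ_6602 to hsa_circ_6605, chosen for its length after the values were seen. Its 4 members had 46, 33, 153 and 98 reads in NL20 and 17, 9, 51 and 12 in NCI-H1975, and none had a read in the 6 libraries of PC-9 and gefitinib-resistant PC-9. All 4 were called lower in gefitinib-resistant PC-9 than in the derived NCI-H1975 groups (edgeR adjusted p = 0.00472, 0.00165, 4.48e-08 and 0.000173). As a sum, the run had 330 reads in NL20, 89 in NCI-H1975, 95 in osimertinib-resistant, 100 in pCMV6 and 70 in FASN cells. The circRNA numbered before it was read in both PC-9 groups.

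The run hsa_circ_2176 to hsa_circ_2178 had no read in either PC-9 group and 339 in NL20, but its members took different levels in NCI-H1975. hsa_circ_2176 had 9, 8 and 18 reads there, hsa_circ_2177 had 12, 15 and 16, and hsa_circ_2178 had 1, 3 and 1. All 3 were called lower in gefitinib-resistant PC-9 (edgeR adjusted p = 2.00e-05, 0.00608 and 7.47e-05). The run hsa_circ_8886 to hsa_circ_8888 was likewise without a read in gefitinib-resistant PC-9, with 66 reads in NL20 and 39 in NCI-H1975. In the run hsa_circ_12916 to hsa_circ_12918 the first had 2, 3 and 1 reads in gefitinib-resistant PC-9, and its neighbours had none.

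**Figure D5:**
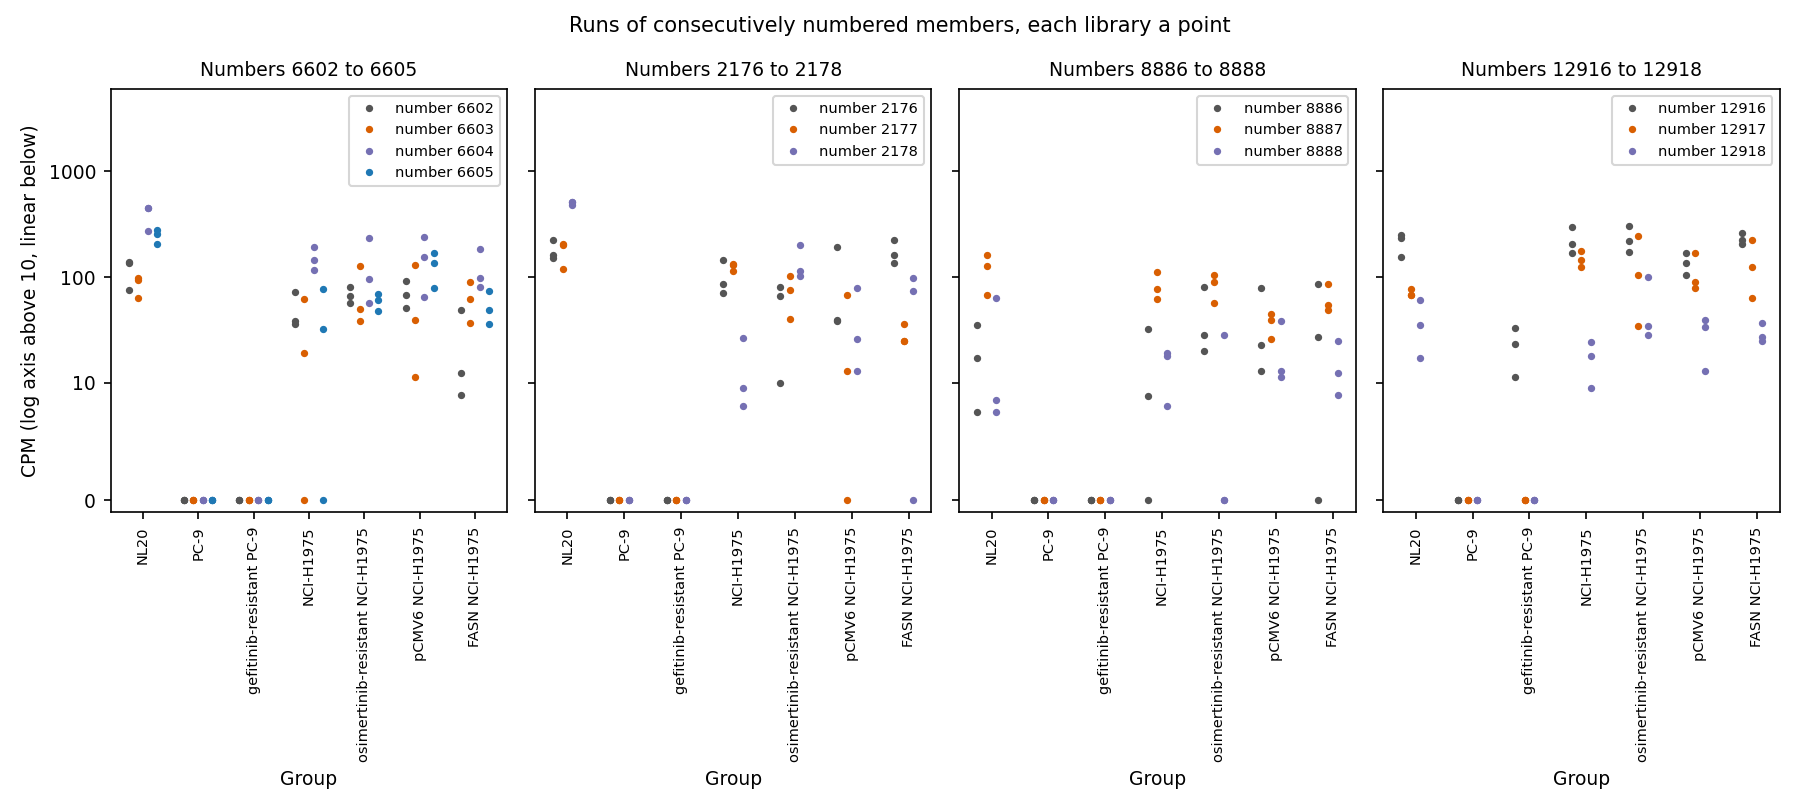
CPM of the members of the 4 runs of at least 3 consecutive numbers, in each library, by group (log axis above 10 CPM, linear below). PC-9 is at 0 by the rule, gefitinib-resistant PC-9 is at 0 for all but hsa_circ_12916, and levels differ between neighbours within a run.

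In the derived NCI-H1975 groups most members were still read. Of the 656, 416 (63.4%) had a read in each of the osimertinib-resistant, pCMV6 and FASN groups, and 20 (3.05%) had none in any of them. No read was found for 122 (18.6%) in osimertinib-resistant, 138 (21.0%) in pCMV6 and 81 (12.3%) in FASN cells. Of the 8513 circRNAs that met both minima and were read in PC-9, 4.24%, 4.82% and 2.74% had none in these groups. These were better counted: 6387 of them had 6 or more PC-9 reads, with a median of 19 reads in NCI-H1975 against 8 for the members. Among the 1082 circRNAs of the rule with 1 PC-9 read allowed, members included, 175, 196 and 112 had none. The part of sparse counts in the gap to the 8513 was not tested. Of the 25 members with at least 20 reads in both lines, none was without a read in any of these groups. The pCMV6 group was also the shallowest, with 304143 reads against 457466 in NCI-H1975.

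The share of reads held by members was lower in the derived groups than in NCI-H1975. It was 1.16%, 1.27% and 1.26% in osimertinib-resistant replicates 1 to 3, or 1.23% ± 0.062 (SD, n = 3). It was 1.36% ± 0.029 in pCMV6 and 1.44% ± 0.021 in FASN cells, against 1.72% ± 0.0085 in NCI-H1975. Every library of the derived groups lay below every NCI-H1975 library. Since the rule asked for at least 5 reads in NCI-H1975, a lower level elsewhere in the line is in part built in, and these differences were not tested.

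Those 8513 circRNAs share that selection, though they were better counted. Summed CPM of the members relative to NCI-H1975 were 0.712 in osimertinib-resistant, 0.740 in pCMV6 and 0.821 in FASN cells. For the 8513 circRNAs these ratios were 0.987, 0.908 and 0.957. Lower than in NCI-H1975 were 486, 495 and 459 of the 656 members (74.1%, 75.5% and 70.0%), against 5192, 5021 and 5081 of the 8513. Without osimertinib-resistant replicate 2 the ratio was 0.719 for the members and 1 for the others, an alternative added after the data were seen. The 530 members of the sparsest tier summed to 12790 CPM in NCI-H1975 and 8459, 8284 and 9584 in the derived groups, in the same order. The 101 members at 10 to 19 reads summed to 5286, then 3719, 3903 and 4409. The 25 members with at least 20 in both lines summed to 5060, then 4290, 4920 and 5002. The 426 circRNAs with 1 PC-9 read had median counts of 8 in NCI-H1975, then 4, 4 and 5. For the members the medians were 8, then 4, 3 and 4. The part of the lower counts of the members in the gap to the 8513 circRNAs was not tested.

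Single members differed from NCI-H1975 in each derived group, with ratios that rest on few reads and carry no test. They were named for the largest differences, so their intervals, which cover counting error alone, are no test either. Most of those raised had 5 or 6 reads in NCI-H1975, at or next to the minimum of the rule. In osimertinib-resistant cells hsa_circ_2178 had 20, 9 and 12 reads against 1, 3 and 1 in NCI-H1975, a ratio of 9.58 (95% exact conditional interval 3.79 to 31.1), and all 3 libraries were above NCI-H1975. Outside the rule's libraries it was not called (edgeR adjusted p = 0.1725 against pCMV6 and 0.3683 against FASN cells). hsa_circ_18834 had 1, 13 and 11 reads against 0, 5 and 1, a ratio of 4.87 (1.95 to 14.5), with overlap between the groups. hsa_circ_3067 had no read in the osimertinib-resistant libraries against 9, 7 and 6, at least 6.27-fold lower. It was read in pCMV6 cells, with 4, 2 and 5 reads, and in FASN cells, with 2, 6 and 1. hsa_circ_5393 had 2, 0 and 0 reads against 6, 13 and 7, a ratio of 0.0899 (0.0103 to 0.359).

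In pCMV6 cells hsa_circ_18227 had 6, 5 and 9 reads against 3, 0 and 3 in NCI-H1975, a ratio of 4.67 (1.81 to 14.2). hsa_circ_6605, the last of the run of 4, had 12, 13 and 6 against 8, 0 and 4, a ratio of 3.62 (1.81 to 7.74). Lower was hsa_circ_17994, with 1, 1 and 2 reads against 15, 8 and 16 and no overlap. Its ratio was 0.144 (0.0373 to 0.398). hsa_circ_35312 had 0, 0 and 1 reads against 9, 10 and 0, so that NCI-H1975 replicate 3 overlapped with the pCMV6 libraries.

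In FASN cells hsa_circ_28554 had 4, 12 and 5 reads against 0, 1 and 4 in NCI-H1975, a ratio of 5.23 (1.92 to 17.8). hsa_circ_23248 had 8, 5 and 7 reads against 1, 2 and 3, a ratio of 4.15 (1.61 to 12.6), and the libraries did not overlap. hsa_circ_2177 had 2, 4 and 2 reads against 12, 15 and 16, a ratio of 0.232 (0.0941 to 0.499). In pCMV6 cells it had 6, 0 and 1, so that both plasmid groups were below NCI-H1975. hsa_circ_5387 had 0, 3 and 1 reads against 2, 5 and 10, and no read in osimertinib-resistant cells. All of these differences share the NCI-H1975 libraries.

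The derived NCI-H1975 groups were also compared with each other, in libraries that the rule did not use. Osimertinib-resistant cells had more hsa_circ_20528, the most abundant member of NL20, than pCMV6 cells. It had 17, 22 and 13 reads against 0, 4 and 2, or 182.6 ± 65.1 against 25.9 ± 25.8 CPM (SD, n = 3), a ratio of 7.23 with every library above every pCMV6 library. Its log2 difference was 2.80 ± 0.60 (SE, edgeR quasi-likelihood test, adjusted p = 0.000521). The FASN group stood at 64.0 ± 16.0 CPM and NCI-H1975 at 74.4 ± 34.1. The adjusted p was 0.0501 in an edgeR fit of these 6 libraries alone and between 0.000386 and 0.0496 when 1 library was left out. It was the only member of the 195 tested that this edgeR fit called, while 1.83% of all circRNAs tested were called, 1.06% higher and 0.774% lower. 29 members had an unadjusted p under 0.05, and DESeq2 called 2. Neither count has a share over all circRNAs tested to set it against.

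Against FASN cells, osimertinib-resistant cells were lower in hsa_circ_5393, with 2, 0 and 0 reads against 13, 12 and 9, a ratio of 0.0552 (95% exact conditional interval 0.00643 to 0.215). Its log2 difference was -3.98 ± 1.15 (SE, edgeR adjusted p = 0.0304). They were also lower in hsa_circ_18518, with 6, 3 and 5 reads against 20, 15 and 26, and a log2 difference of -2.25 ± 0.66 (SE, edgeR adjusted p = 0.0328). Neither group overlapped the other for these circRNAs. Each call held in 1 of 6 edgeR fits with a library left out. The first held without osimertinib-resistant replicate 1 (edgeR adjusted p = 0.0223) and was lost without any other of the 6 libraries (0.0843 to 0.175). The second held without FASN replicate 2 (edgeR adjusted p = 0.0358) and was lost without any of the others (0.0767 to 0.231). They were the only 2 of the 195 tested members called by that edgeR fit, beside 2.5% of all circRNAs tested, 1.34% higher and 1.16% lower. 20 members had an unadjusted p under 0.05, and DESeq2 called 4, again without a share over all circRNAs tested.

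FASN and pCMV6 cells, both transfected and under G418, gave no call among the 195 tested members with edgeR's quasi-likelihood test or with DESeq2, where edgeR called 0.316% of all circRNAs tested, 0.196% higher and 0.12% lower in FASN cells. 12 members had an unadjusted p under 0.05, a count not made for all circRNAs tested. The smallest p was that of hsa_circ_17994, with 7, 20 and 6 reads in FASN against 1, 1 and 2 in pCMV6 cells, or 113.4 ± 58.0 against 16.7 ± 8.08 CPM (SD, n = 3). Its ratio was 7.33 (95% exact conditional interval 2.61 to 28.5) and its log2 difference 2.72 ± 0.92 (SE, edgeR adjusted p = 0.308). The FASN libraries all lay above the pCMV6 libraries. On simulated data edgeR recovered 47% of 4-fold and 8% of 2-fold changes in this comparison, so many changes of that size would be missed. The circRNAs changed in the simulation had a mean of at least 5 reads per compared library. Many tested members had fewer in these groups, and recovery at their level was not simulated. The median log2 difference was 0.13 for the tested members and 0 for all circRNAs tested.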

How the data were processed

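The data are counts of reads per circRNA in 21 libraries, deposited by the authors as whole numbers without normalization. Per the submitters' processing notes, the build was hg38 and the tools included HISAT2 and DESeq2; which program called circRNAs, with which filters, is not given in the sources used here. Circular RNA was purified from column-extracted total RNA by the sequencing provider, per the labels' protocols.

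The members, the tests and the rule for named circRNAs were chosen with earlier results of these data known. filterByExpr (minimum count 5, minimum total 15) kept 9175 circRNAs. One quasi-likelihood model with 7 group means was fitted in R 4.3.3 with edgeR 4.0.16 (TMM, robust), and p-values were adjusted by Benjamini and Hochberg over all circRNAs tested within each of 4 comparisons, at a threshold of 0.05. CPM of any circRNA use the scaled totals of the tested circRNAs. The SE is the size of the log2 difference divided by the square root of its F statistic. Comparisons used libraries the rule did not use; all differences from PC-9, NL20 or NCI-H1975 were described only. DESeq2 1.42.0, other scalings, filters, member rules, thinning and left-out libraries were alternatives. For each tested comparison the up to 2 called members of smallest p in each direction are named; for described differences, the up to 2 with the largest fitted difference in each direction among tested members with at least 20 reads over both groups. The code was tested on simulated data with 9175 circRNAs and 200 changed: for gefitinib-resistant PC-9 against the derived NCI-H1975 groups it recovered 71% of 4-fold and 17% of 2-fold changes. No library was a copy of another within its group, nor were the pair from different groups with equal totals. Same-numbered replicates did not deviate together, so the numbers were not treated as pairs.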

Additional observations from a re-analysis of the deposited data

How the results depend on the processing

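The number of members was set by depth and limits. With 10 reads required in both lines, 126 circRNAs met the rule, of which 69 had a read in gefitinib-resistant PC-9, and 5, 6 and 3 had none in osimertinib-resistant, pCMV6 and FASN cells. With 1 PC-9 read allowed there were 1082, and 693 had a gefitinib-resistant read. Thinned to the smallest library there were 294.1, with 178.8 read in gefitinib-resistant PC-9 and 33.0, 28.5 and 18.7 without a read in the osimertinib-resistant, pCMV6 and FASN groups. With 1 library left out the number of members ran from 395 to 1184, those read in gefitinib-resistant PC-9 from 229 to 794, and those without a read from 57 to 207 in osimertinib-resistant, 63 to 213 in pCMV6 and 36 to 147 in FASN cells. The number of members was 926 to 1184 without a PC-9 library, and the highest numbers without a read came from leaving out a library of the derived group itself.

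The count of members lower in gefitinib-resistant PC-9 was 69, with 44 at a minimum count of 10, 30 without the filter and 37 to 67 with a library left out. No alternative called a member higher. With the replicate block it was 65, and the block left the other counts at 0 for FASN against pCMV6, 1 for osimertinib-resistant against pCMV6 and 2 against FASN. For osimertinib-resistant against pCMV6 cells 2 members were called with 1 PC-9 read allowed, with DESeq2, with RLE scaling and with the most abundant circRNA removed, 0 in a fit of the compared groups alone, and 1 to 2 with a library left out. Against FASN cells 4 were called with DESeq2 and 4 at a minimum count of 10, none (0) without the filter, and 0 to 1 with a library left out. For FASN against pCMV6, 1 was called with 1 PC-9 read allowed, and 0 in each fit that left out a library. For fits other than the main one, the share called over all circRNAs tested was not counted. These counts therefore show how the number of members moved, and not whether members were called more often than other circRNAs.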
